A study of Rattus norvegicus with 16 samples.

Results

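Removal of both adrenal glands (ADREX) was compared with sham surgery (SHAM) in the liver of rats kept in clean air. The comparison used 8 of the 16 RNA-seq libraries of the series, 4 in each group, and 12791 of 22587 gene symbols, those whose mean over the 16 libraries was at least 14.7 normalized counts. The libraries were chosen by their titles, which number them SHAM air 1 to 4 and ADREX air 65 to 68. All rats were males of the strain labelled Wistar-Wyoto, 13 weeks old. Those in the air groups carry a title that gives air for the 4 h exposure, and the other 8 libraries came from SHAM and ADREX rats that breathed ozone at 0.8 ppm for 4 h. The sample field for treatment gives ozone for the 4 libraries titled ADREX air, so titles and field disagree there; the titles were used. The labels name the surgery as total and bilateral, give no interval between surgery and sampling, name no hormone replacement, and do not say that each library is 1 animal, so p-values measure only the spread between these libraries.

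The adrenal cortex makes corticosterone, the main glucocorticoid of rats, and aldosterone, and the adrenal medulla makes adrenaline. In hepatocytes glucocorticoids act through the glucocorticoid receptor, a ligand-activated transcription factor that is best known there for inducing enzymes of glucose formation and amino acid breakdown. Glucagon acts through cAMP, insulin drives glucose use and fat synthesis, and feeding time sets the phase of the liver clock, so many liver genes answer to several of these signals at once.

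Each value below is a normalized count, a read count scaled by 1 factor per library in the deposited table. The error after ± is the standard error (SE) for a log2 change and the standard deviation (SD, n = 4) for a group mean. A change is the difference in log2(normalized count + 1), ADREX minus SHAM, from limma fitted over all 16 libraries with 1 mean per group, and a gene was said to rise or fall when its Benjamini-Hochberg adjusted p over all genes tested was under 0.05. Air libraries held 8372891 to 12548669 reads, at which 3 reads, the most that a count of 0 allows, equal 3.18 to 6.02 normalized counts. Spearman correlations across genes ran from 0.929 to 0.975 within SHAM air, from 0.941 to 0.978 within ADREX air and from 0.905 to 0.968 between the groups. The defining hepatocyte gene Alb, albumin, was the gene with most reads in each of the 8 libraries, and the genes that mark the adrenal gland summed to 0.629 to 3.81 reads per 1000000 (RPM) in SHAM and 1.09 to 3.34 in ADREX. As this was bulk tissue, fewer cells of a type and less RNA per cell cannot be told apart.

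ADREX air 67 stood apart from the other ADREX libraries. Among the genes that passed the test it was the ADREX library nearest the SHAM mean for 263 (58.3%), and SHAM air 3 was the SHAM library nearest the ADREX mean for 194 (43%). Transcripts of nervous tissue also varied: the 27 markers of neurons, oligodendrocytes and astrocytes summed to 69.9, 47.5, 916 and 115 RPM in SHAM air 1 to 4 and to 537, 307, 298 and 1299 in ADREX air 65 to 68. All 26 tested markers of these cells had a positive change (median 1.59 for 15 neuron genes and 2.28 for 11 glial genes) and none passed the test. A fit with their sum as a covariate called 194 genes, 187 of them among those called without it; of the 124 passing genes that were followed through every alternative fit, 57 missed the threshold in it and none changed direction.

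In clean air 451 of 12791 genes differed between ADREX and SHAM (3.53%), of which 191 were higher (1.49%) and 260 lower (2.03%) after adrenalectomy. A change of at least 1 on the log2 scale was seen in 310 of them and of at least 2 in 102. The 4 ADREX and 4 SHAM libraries did not overlap for 408 of the 451, against 1185 of all genes tested (9.26%). The median change of all genes tested was 0.04. At an unadjusted p under 0.05, 2579 genes differed. The count at the adjusted threshold ranged from 194 (without ADREX air 66) to 1004 (without SHAM air 3) when 1 library was left out. Without ADREX air 67 it was 824, and without SHAM air 2, SHAM air 4, ADREX air 65 and ADREX air 68 it was 228, 206, 255 and 246.

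**Figure D1:**
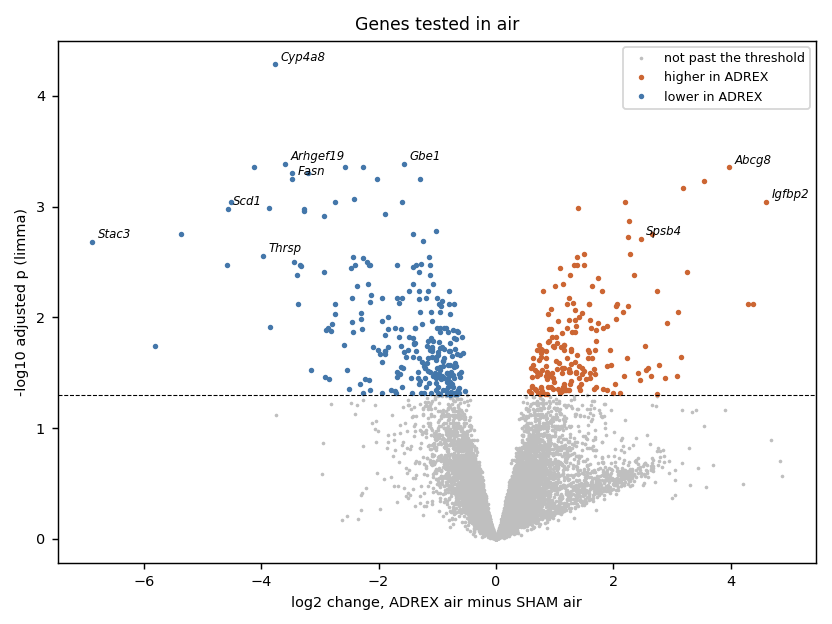
Change in each of 12791 genes (x axis, log2, ADREX air minus SHAM air) against -log10 of limma's adjusted p (y axis), with a dashed line at 0.05. The 191 higher genes are orange and the 260 lower genes blue, and Cyp4a8 has the smallest adjusted p (5.21e-05) and Stac3 the lowest change (-6.88).

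Genes of fructose entry and fat synthesis, Slc2a5, Scd1, Thrsp and Fasn, were among the 15 falls named by rule. Gckr encodes a regulatory protein of hepatocyte glucose phosphorylation. Its normalized count was 2213, 2495, 1775 and 2091 in SHAM air 1 to 4 and 248, 213, 1135 and 384 in ADREX air 65 to 68. No ADREX library reached the lowest SHAM library. The change was -2.45 ± 0.45, with an adjusted p of 0.00665. Pklr, the liver pyruvate kinase, fell by 2.15 on the log2 scale, Tkfc, the triokinase of fructose use, by 1.69, and Slc2a5, the fructose transporter GLUT5, by 2.93. Pfkfb1, which makes and degrades the glycolytic activator fructose 2,6-bisphosphate, and Pgam1, a phosphoglycerate mutase, changed by -2.85 and -0.61. In all, 7 of the 18 tested genes of glycolysis and fructose use fell and none rose, with a median of -0.60 over the list.

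Fatty acid synthesis followed the same direction, with 8 of 19 tested genes lower, none higher and a median of -1.26 (-1.81 without ADREX air 67). Fasn, fatty acid synthase, was 4987, 6227, 2446 and 5849 in SHAM and 275, 298, 1142 and 314 in ADREX. ADREX air 65, 66 and 68 lay close together and ADREX air 67 lay above them, still below every SHAM library; the change was -3.47 ± 0.43 (adjusted p = 0.000558). Scd1, the stearoyl-CoA desaturase that makes oleate, was 25642, 9143, 8805 and 22064 in SHAM and 787, 175, 2141 and 483 in ADREX, without overlap (-4.57 ± 0.64, adjusted p = 0.00104). Thrsp, a lipogenic regulator induced by thyroid hormone and carbohydrate, was 9128, 13124, 3405 and 10352 in SHAM and 481, 222, 2695 and 239.7 in ADREX. ADREX air 67 came within reach of SHAM air 3 for Thrsp but the groups stayed apart (-3.97 ± 0.62). Acly, which makes cytosolic acetyl-CoA from citrate, went from 4236 ± 1068 to 1044 ± 322 (-2.03 ± 0.26), and Acaca, the carboxylase of the committed step, from 1764 ± 347 to 501 ± 228 (-1.89 ± 0.27). Elovl5, an elongase of polyunsaturated fatty acids, also fell (-0.76 ± 0.19). The transcription factors that drive these genes moved less and did not pass the test: Srebf1 (SREBP-1) had 2095, 4908, 1856 and 2259 in SHAM and 1206, 1892, 2880 and 1390 in ADREX (-0.56, adjusted p = 0.338), and Mlxipl (ChREBP) had a change of -0.38 (adjusted p = 0.144).

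Of 17 tested genes of triglyceride storage, 3 fell: Lpin1, a phosphatidate phosphatase (-1.89 ± 0.43), Dgat2, which makes triglyceride from diacylglycerol (-0.84 ± 0.21), and G0s2, an inhibitor of the lipase ATGL (-2.54 ± 0.61). G0s2 was 2100, 6857, 2099 and 3504 in SHAM and 1058, 994, 104 and 835 in ADREX; here ADREX air 67 was the library farthest from SHAM. Stac3, known for its part in excitation-contraction coupling of skeletal muscle, had the lowest change of the genes named by rule. It was 2566, 1510, 1543 and 2181 in SHAM and 24.7, 14.8, 74.5 and 1.22 in ADREX, the last from 1 read (-6.88 ± 1.05, adjusted p = 0.00207). The 6 skeletal muscle markers in the table summed to at most 1.07 RPM in any SHAM or ADREX air library. When 1 library at a time was left out, Gckr, Pklr, Tkfc, Slc2a5, Fasn, Scd1, Thrsp, Acly, Acaca and Stac3 passed in all 16 fits. Pfkfb1, Pgam1, Elovl5, Lpin1, Dgat2 and G0s2 missed the threshold in 6, 5, 9, 5, 7 and 2 of them, with a highest adjusted p of 0.0998 and 0.0828 for Pfkfb1 and Lpin1 without SHAM air 4, 0.121, 0.136 and 0.136 for Pgam1, Elovl5 and Dgat2 without ADREX air 66, and 0.109 for G0s2 without SHAM air 2.

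**Figure D2:**
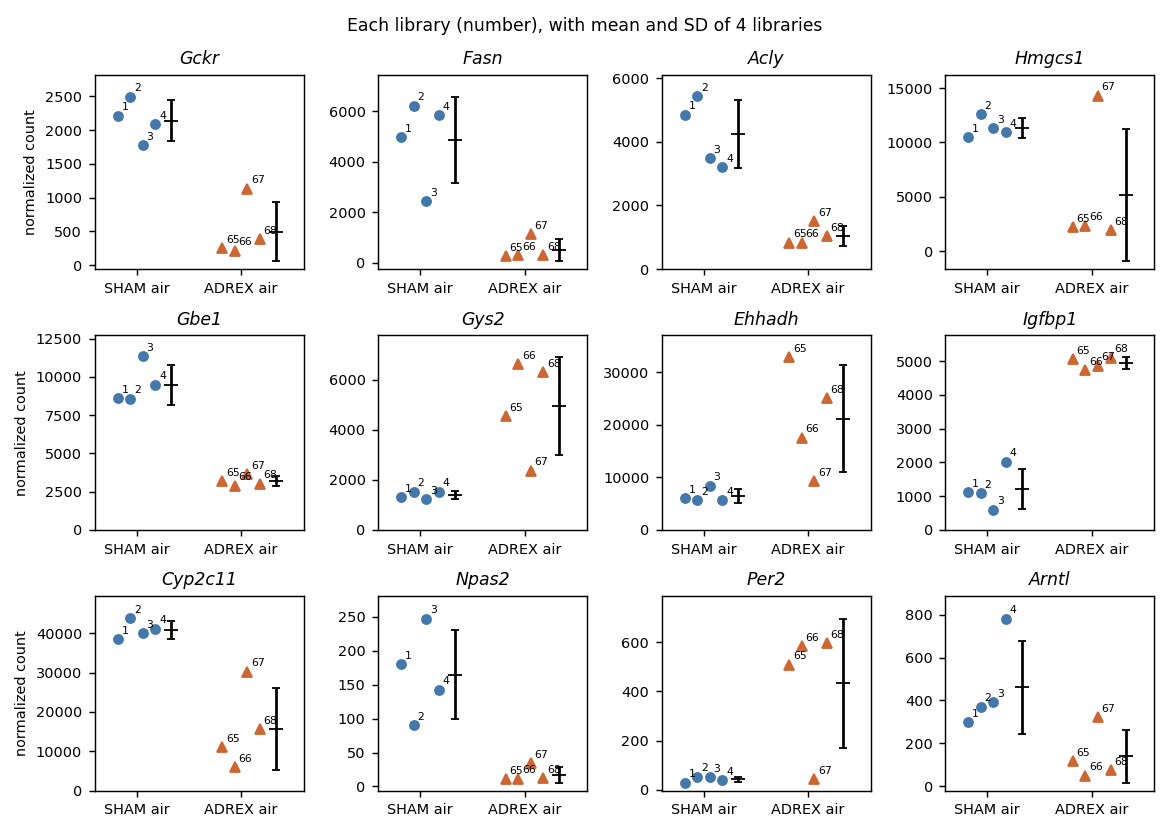
Normalized counts (y axes, linear) of 12 genes in each SHAM air and ADREX air library, marked by library number, with the mean and SD of 4 libraries beside them. ADREX air 67 lies above the SHAM range for Hmgcs1 (14292), inside it for Per2 (43.2) and below the SHAM range for Gbe1 (3653).

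Glycogen genes changed in both directions, with 2 of 17 tested genes higher and 4 lower. Gbe1, the branching enzyme, was 8597, 8563, 11348 and 9495 in SHAM and 3188, 2900, 3653 and 3014 in ADREX. The 4 ADREX libraries lay within a narrow range far under SHAM, ADREX air 67 included (-1.57 ± 0.17, adjusted p = 0.000412). Pygl, liver glycogen phosphorylase, fell by 1.48 on the log2 scale, and Ppp1r3b and Ppp1r3c, subunits that bring protein phosphatase 1 to glycogen, changed by -2.31 and -2.15. A related subunit, Ppp1r3g, rose from 3 to 7 reads in each SHAM library to 13 to 136 in each ADREX library (5.95, 8.41, 6.25 and 6.02 against 89.4, 54, 19.4 and 166 normalized counts; 3.08 ± 0.76, adjusted p = 0.0336). Gys2, liver glycogen synthase, was 1298, 1531, 1225 and 1529 in SHAM and 4556, 6638, 2377 and 6303 in ADREX, higher in every ADREX library and least so in ADREX air 67 (1.73 ± 0.35). Gbe1, Gys2, Ppp1r3b and Ppp1r3c passed in all 16 fits without 1 library, Pygl missed in 3 (adjusted p = 0.0585 without ADREX air 66) and Ppp1r3g in 6 (adjusted p = 0.112 without ADREX air 68).

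Of 12 tested genes of sterol export and of the oxysterol receptor LXR, 5 rose, Abcg5 and Abcg8 the most, none fell and 7 did not pass (median 0.50). Abcg5 and Abcg8 encode the 2 subunits of the canalicular transporter that moves cholesterol and plant sterols into bile, and the genes lie head to head. As they rose together, the whole stretch between their start sites is shown, from RefSeq on build GRCr8, chr6:15717731-15717935, plus strand, running towards Abcg5 on the right and away from Abcg8 on the left. It is 205 bases long with 52.2% G or C, and the capitals mark ATTGG, the CCAAT box on the other strand. Searched on both strands for E-box CACGTG, D-box TTATGTAA, the ROR element core TAGGTCA, the sterol element core TCACNCCAC, a palindromic glucocorticoid element and a PPAR element core, it held no other match. CCAAT occurs in 34% of all 33469 RefSeq windows of 250 bases upstream of a start, a length slightly above that of this stretch, so the match is a description only.
Abcg5-Abcg8: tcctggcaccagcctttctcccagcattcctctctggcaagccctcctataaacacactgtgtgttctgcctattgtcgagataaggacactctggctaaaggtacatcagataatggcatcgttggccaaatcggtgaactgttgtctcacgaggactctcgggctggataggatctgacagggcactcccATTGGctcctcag

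Abcg8 was 46.1, 37.2, 53.8 and 24.1 in SHAM and 652, 434, 442 and 1206 in ADREX. Abcg5 was 71.4, 85.3, 72.5 and 40.1 in SHAM and 614, 509, 485 and 867 in ADREX. For both genes the groups were far apart, and ADREX air 66 and 67 were the lowest of the ADREX libraries. The changes were 3.98 ± 0.47 for Abcg8 and 3.19 ± 0.41 for Abcg5, with adjusted p of 0.000444 and 0.000673. The other 3 that rose were Abcg1, a cholesterol exporter (1.51 ± 0.25), Mylip, a ubiquitin ligase (1.47 ± 0.35), and Pltp, phospholipid transfer protein (1.03 ± 0.22). Abcg5, Abcg8 and Abcg1 passed in all fits without 1 library, while Mylip missed in 6 and Pltp in 2, both with the highest adjusted p (0.105 and 0.0606) without SHAM air 4.

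In cholesterol synthesis 1 library, ADREX air 67, affected the size of the change and which genes passed, but not the direction of the median. Of 25 tested genes of synthesis and uptake, 24 had a negative change (median -0.99, and -1.59 without ADREX air 67), but only Hmgcs1, the synthase that feeds the mevalonate pathway, passed the test. Hmgcs1 was 10490, 12620, 11321 and 10918 in SHAM and 2185, 2324, 14292 and 1916 in ADREX, that is, about 5 times lower in 3 ADREX libraries and above SHAM in ADREX air 67 (-1.72 ± 0.45, adjusted p = 0.0467). Sqle, squalene epoxidase, showed the same split, with 604, 908, 400.0 and 801 in SHAM and 73, 84.7, 1248 and 74.6 in ADREX. Without ADREX air 67 the change of Sqle was -3.05 (adjusted p = 3.96e-05, against 0.103 with it). Hmgcs1 missed the threshold in 13 of 16 fits without 1 library (adjusted p = 0.145 without ADREX air 66). Among the ozone-exposed rats 10 of the 25 genes fell, none rose and the median was -1.14.

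In the bile acid list 3 of 21 tested genes fell and none rose. Abcc2, the canalicular exporter of conjugates, was 21844, 29700, 17589 and 29533 in SHAM and 7522, 10114, 7614 and 5430 in ADREX, and Slco1b2, an uptake carrier of the sinusoidal membrane, 18051, 23528, 21820 and 29340 and 6939, 8034, 12048 and 10578. Neither gene overlapped between the groups (-1.69 ± 0.31 and -1.31 ± 0.24). Nr1h4, the bile acid receptor FXR, changed by -0.78 ± 0.20 and missed in 7 fits without 1 library (adjusted p = 0.124 without SHAM air 4). Cyp7a1, the rate-limiting enzyme of bile acid synthesis, had 1723, 2417, 789 and 4726 in SHAM and 3611, 1415, 3394 and 5091 in ADREX, with overlapping groups (adjusted p = 0.564).

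Of 20 tested beta-oxidation genes 4 rose and none fell. Ehhadh, the peroxisomal bifunctional enzyme, was 6046, 5613, 8435 and 5628 in SHAM and 32859, 17540, 9221 and 25040 in ADREX, with ADREX air 67 just above the SHAM range (1.59 ± 0.36, adjusted p = 0.0204). Ech1, an isomerase of peroxisomes and mitochondria, changed by 1.16 ± 0.26 and the mitochondrial reductase Decr1 by 0.89 ± 0.19. Vnn1, a pantetheinase known as a PPAR-alpha target, rose by 2.04. Cpt1a, the carnitine transferase of mitochondrial entry, had 10749 ± 3663 in SHAM and 16912 ± 3800 in ADREX (adjusted p = 0.131, but 0.0442 without ADREX air 67, 0.0451 without SHAM air 3 and 0.0185 with array weights). Vnn1 passed in all fits without 1 library (adjusted p = 0.0508 in a fit of the 8 air libraries alone), and Ehhadh, Ech1 and Decr1 missed in 5, 4 and 3, with the highest adjusted p 0.0702 without ADREX air 65, and 0.0715 and 0.0655 without SHAM air 4.

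The Cyp4 hydroxylases, which oxidize fatty acids at their far end, went both ways. Cyp4a8 was 1298, 786, 1669 and 1411 in SHAM and 60.0, 104, 150.4 and 73.4 in ADREX, and it had the smallest adjusted p of all genes (-3.76 ± 0.33, adjusted p = 5.21e-05). Every ADREX library, ADREX air 67 included, was more than 5 times lower than the lowest SHAM library. Cyp4a1 was 5015, 3587, 7050 and 4639 in SHAM and 17051, 11569, 6536 and 16098 in ADREX; ADREX air 67 lay inside the SHAM range (1.29 ± 0.29). Cyp4b1 fell by 1.32 on the log2 scale. Acot5, a peroxisomal acyl-CoA thioesterase, was 81.8, 25.2, 82.5 and 20.1 in SHAM and 368, 338, 544 and 111 in ADREX (2.74 ± 0.49). Reads of Cyp4a genes and of Acot genes may be split among near-identical copies, and the counting of such reads is not given in the sources used here. Cyp4a8 and Acot5 passed in all fits without 1 library, and Cyp4a1 and Cyp4b1 missed in 5 and 6 (adjusted p = 0.0735 without SHAM air 2 and 0.109 without ADREX air 66).

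**Figure D3:**
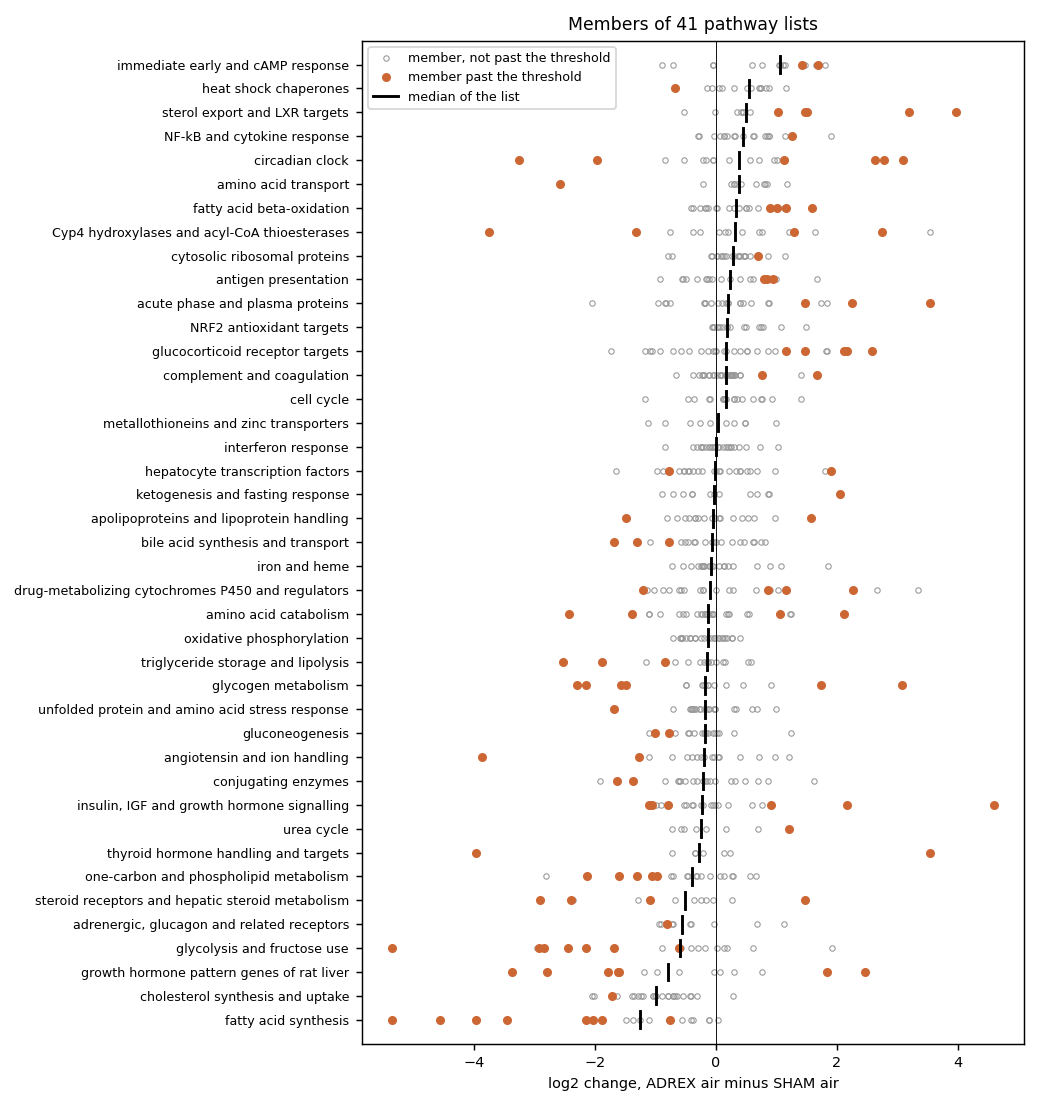
Change of each tested member (x axis, log2, ADREX air minus SHAM air) in 41 pathway lists, ordered by their median (black bar), with members past the threshold filled. Fatty acid synthesis has the lowest median (-1.26). Of 727 list members 102 passed, in lists made of genes known in liver and chosen with earlier results of these data known.

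Over all 41 lists 102 of 727 tested genes passed (14%), beside 3.53% of all genes tested, and no test was made on a list. The lists were chosen with earlier results of these data known, so the higher share cannot be read as a result. Igfbp2, which binds insulin-like growth factors in plasma, was 143, 30.0, 83.8 and 46.2 in SHAM and 1340, 1685, 449.7 and 6102 in ADREX. The ADREX libraries spread widely, from ADREX air 67 at the low end to ADREX air 68 at the high end, and all lay above SHAM (4.60 ± 0.63, adjusted p = 0.000906). Igfbp1, a binding protein suppressed by insulin, was 1119, 1087, 595 and 2027 in SHAM and 5051, 4733, 4867 and 5108 in ADREX. Here the 4 ADREX libraries were nearly equal, ADREX air 67 included (2.16 ± 0.42). Igfbp4 also rose (0.90 ± 0.19), whereas Igfbp3, the main carrier of IGF-1 in blood, and Igf1 itself fell (-1.12 ± 0.25 and -0.80 ± 0.21). Pik3r1, the regulatory subunit of phosphoinositide 3-kinase, fell from 1213 ± 287 to 571 ± 75.3. Of 22 tested genes of insulin, IGF and growth hormone signalling, 3 rose and 3 fell. Igf1, Igfbp3 and Igfbp4 missed the threshold in 10, 2 and 3 fits without 1 library (adjusted p up to 0.147 for Igf1 without ADREX air 68, and 0.0714 and 0.065 for the others without SHAM air 4).

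Serpina7 encodes thyroxine-binding globulin, the plasma carrier of thyroid hormone. Its normalized count was 149, 338, 359 and 347 in SHAM and 2076, 5008, 2627 and 4225 in ADREX, without overlap (3.54 ± 0.45, adjusted p = 0.00059). Serpina6, the corticosteroid-binding globulin that carries corticosterone, was 7866, 5704, 8969 and 4198 in SHAM and 24112, 17910, 12608 and 18270 in ADREX (1.47 ± 0.28, adjusted p = 0.00913). Among genes of steroid handling, Esr1, the estrogen receptor alpha, was 689, 928, 838 and 1467 in SHAM and 147, 162, 293 and 139 in ADREX (-2.41 ± 0.40). Akr1c14, a 3-alpha-hydroxysteroid dehydrogenase, and Hsd17b6, an oxidoreductase of steroids and retinol, fell (-1.10 ± 0.24 and -2.92 ± 0.72), so that 3 of 12 tested genes of the list were lower and 1, Serpina6, higher. Akr1c1, an aldo-keto reductase, went from 2423, 2121, 3081 and 2344 to 354, 92.1, 430.4 and 172 (-3.47 ± 0.42). Cyp17a1, the steroid 17-alpha-hydroxylase, went from 52.1, 73.3, 32.5 and 60.2 to 494, 125, 119 and 884 (2.42 ± 0.59). Serpina7, Serpina6, Esr1 and Akr1c1 passed in all 16 fits without 1 library, while Akr1c14, Hsd17b6 and Cyp17a1 missed in 4, 6 and 5 (adjusted p = 0.0784 and 0.127 without ADREX air 66, and 0.101 without ADREX air 65).

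In rat liver, the pulses of growth hormone in males maintain male-biased genes and hold down female-biased ones. Of 14 tested genes that follow this hormone pattern, of either bias, 5 fell, the male-biased Cyp2c11, Mup4 and Mup5 among them, and 2 rose, the female-biased Cyp2c12 and Cux2. In the ozone-exposed rats 3 of these 14 genes rose and none fell, and the median was -0.33, against -0.79 in air. Cyp2c11, the main male cytochrome P450, was 38509, 43795, 40009 and 41105 in SHAM and 11044, 6023, 30214 and 15593 in ADREX. ADREX air 67 kept the highest level of the ADREX group, below SHAM (-1.62 ± 0.38, adjusted p = 0.0281). Mup5 and Mup4, of the alpha-2u globulins that male rats excrete in urine, changed by -3.38 ± 0.63 and -2.79 ± 0.56. Mup5 had 223, 396, 226 and 275 in SHAM and 15.3, 12.7, 87.9 and 23.2 in ADREX. The related locus LOC259245 changed by -2.17 ± 0.36, and 10 of 11 tested rows with placeholder names starting Rn50_5_081 fell as well. That locus and these rows are outside the lists and the naming rule and were chosen with earlier results of these data known. Mup genes are near-identical copies among which reads may be split, and what the placeholder rows are is not given in the table. Rup2, a urinary protein, and Hao2, an oxidase of hydroxy acids, fell by 1.78 and 1.61 on the log2 scale. Cyp2c12, the main female P450, was 28.3, 75.7, 45 and 50.2 in SHAM and 134, 243, 64 and 391 in ADREX, with ADREX air 67 inside the SHAM range (1.83 ± 0.47). Cux2, a female-biased repressor, was 5.95, 27.6, 17.5 and 8.03 in SHAM and 69.4, 229, 32.8 and 55 in ADREX (2.46 ± 0.62). Mup4 and Mup5 passed in all fits without 1 library, though Mup4 missed with edgeR (adjusted p = 0.0736), and Cyp2c11, Rup2, Hao2, Cyp2c12 and Cux2 missed in 6, 12, 4, 11 and 6, with a highest adjusted p of 0.155 for Rup2 without SHAM air 4 and of 0.09, 0.0714, 0.137 and 0.134 for the others without ADREX air 66.

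Of 29 tested targets of the glucocorticoid receptor, 5 rose in air (Sgk1, Igfbp1, Serpina6, Por and Sds), none fell, and the median was 0.17 (0.51 without ADREX air 66). Fkbp5, a chaperone that is among the most sensitive targets of the receptor, was 415, 593, 405 and 512 in SHAM and 295, 279, 460.2 and 267 in ADREX (-0.58 ± 0.30, adjusted p = 0.281). It was lower than every SHAM library in ADREX air 65, 66 and 68, and inside the SHAM range in ADREX air 67. Without ADREX air 67 its change was -0.76 (adjusted p = 0.153). Tsc22d3 (GILZ), an anti-inflammatory target, had 1442, 691, 1108 and 1411 in SHAM and 1370, 597, 494 and 1915 in ADREX, and Per1 205, 169, 90.0 and 148 and 239, 54, 110.2 and 282. For both the ADREX libraries reached above and below SHAM (adjusted p = 0.767 and 0.956). Sgk1, a kinase induced by glucocorticoids and aldosterone, was 225, 84.1, 278 and 70.2 in SHAM and 291, 688, 3717 and 663 in ADREX, all above SHAM and with ADREX air 67 far above the rest (2.59 ± 0.61, adjusted p = 0.0284). Por, the reductase that supplies electrons to cytochromes P450, was 1664, 1243, 935 and 805 in SHAM and 2652, 1964, 1990 and 3661 in ADREX (1.15 ± 0.27). Nr3c1, the receptor itself, differed by less than its error (-0.04 ± 0.21, adjusted p = 0.928). Sgk1, Por and Sds missed the threshold in 4, 4 and 13 fits without 1 library (adjusted p = 0.105 and 0.105 without SHAM air 4, and 0.151 without SHAM air 2). For the same surgery under ozone, 2 of the 29 targets rose and 8 fell, with a median of -0.48. Whether the list as a whole differed between exposures was not tested.

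Of 18 tested genes of glucose formation 2 fell and none rose. Pck1, the PEP carboxykinase, was 57273, 42466, 64837 and 43376 in SHAM and 57650, 62146, 28949 and 61584 in ADREX, and G6pc, the glucose-6-phosphatase, 12633, 10425, 7434 and 13428 and 13510, 14884, 1744 and 10556. The groups overlapped for both (adjusted p = 0.972 and 0.65), and ADREX air 67 was the lowest library of all 8. The 2 that fell were pyruvate carboxylase Pc (-0.78 ± 0.17) and the glucose-6-phosphate carrier Slc37a4 (-1.02 ± 0.23). In amino acid breakdown 2 of 28 rose and 2 fell. Sds, serine dehydratase, was 393, 209, 288 and 464 in SHAM and 2617, 860.0, 471 and 3736 in ADREX (2.12 ± 0.56); in tryptophan breakdown Kmo rose (1.06 ± 0.21) while Kynu, the next enzyme, fell from 7029 ± 928 to 1479 ± 861 (-2.43 ± 0.39), and Prodh, proline dehydrogenase, fell by 1.39 on the log2 scale. Tat, the hormone-induced tyrosine aminotransferase, had a change of 0.51 (adjusted p = 0.387). Asl, of the urea cycle, rose (1.21 ± 0.24), and Slc6a6, the taurine transporter, fell from 409, 317, 609 and 588 to 85.9, 87.9, 73 and 63.6 (-2.58 ± 0.30, adjusted p = 0.000444). Kmo, Kynu, Asl and Slc6a6 passed in all fits without 1 library, and Pc, Slc37a4, Prodh and Sds missed in 2, 4, 3 and 13 (adjusted p = 0.059 and 0.0945 without ADREX air 66, 0.0656 without SHAM air 4 and 0.151 without SHAM air 2). For the same surgery under ozone, 5 of the 18 genes of glucose formation fell and none rose. In amino acid breakdown 8 of 28 then fell and 1 rose, and in the urea cycle 3 of 8 fell and none rose.

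Of 18 tested clock genes, Per2, Per3, Dbp and Tef rose, Arntl and Npas2 fell, and 12 did not pass. The activators BMAL1 (Arntl) and NPAS2 bind E-boxes and drive Per, Dbp and Tef, the last 2 of which bind D-boxes, and Arntl in turn is controlled through ROR elements. The 250 bases before the start of 3 of these genes are shown, from RefSeq on build GRCr8, because each holds 1 such element in capitals: for Per2 the D-box TTATGTAA (chr9:99496994-99497243, minus strand), for Tef the E-box CACGTG (chr7:115206577-115206826, plus strand) and for Arntl, named Bmal1 in RefSeq, the core TAGGTCA (chr1:176766078-176766327, plus strand). Over all 33469 such windows, searched on both strands, 0.828% held that D-box, 5.59% the E-box and 2.26% the ROR core. Among genes with a window, an E-box stood in 17 of 137 that rose (12.4%), 9 of 199 that fell (4.52%) and 829 of 9582 tested (8.65%). No such element was found for Per3, Dbp or Npas2. Nr1d1, Bhlhe40, Bhlhe41 and Ciart, which were not among the clock genes that rose or fell, held an E-box. A match of letters shows no binding.
Per2: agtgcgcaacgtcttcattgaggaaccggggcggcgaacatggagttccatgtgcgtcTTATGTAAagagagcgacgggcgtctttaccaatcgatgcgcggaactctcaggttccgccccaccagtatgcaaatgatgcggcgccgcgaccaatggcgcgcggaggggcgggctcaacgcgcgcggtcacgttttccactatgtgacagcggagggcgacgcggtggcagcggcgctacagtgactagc
Tef: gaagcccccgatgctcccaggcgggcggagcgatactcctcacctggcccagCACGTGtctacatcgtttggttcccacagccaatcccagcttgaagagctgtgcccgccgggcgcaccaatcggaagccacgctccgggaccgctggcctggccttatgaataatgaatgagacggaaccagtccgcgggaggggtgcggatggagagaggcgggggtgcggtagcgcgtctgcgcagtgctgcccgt
Arntl: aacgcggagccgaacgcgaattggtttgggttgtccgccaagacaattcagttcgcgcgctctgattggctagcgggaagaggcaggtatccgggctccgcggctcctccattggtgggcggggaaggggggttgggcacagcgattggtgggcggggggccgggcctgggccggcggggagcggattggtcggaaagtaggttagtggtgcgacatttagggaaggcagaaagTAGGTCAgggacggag

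Per2, a repressor, was 29.8, 52.9, 51.3 and 40.1 in SHAM and 507, 584, 43.2 and 594 in ADREX. ADREX air 65, 66 and 68 were more than 9 times the highest SHAM library and ADREX air 67 lay inside the SHAM range (2.78 ± 0.65, adjusted p = 0.027). Per3 had 52.1, 63.7, 56.3 and 18.1 in SHAM and 509.6, 641, 133 and 459.8 in ADREX, without overlap (3.10 ± 0.60). Dbp and Tef rose with overlap between the groups (2.64 ± 0.65 and 1.13 ± 0.27). Npas2 was 180.1, 90.1, 248 and 142 in SHAM and 10.6, 11.6, 34.3 and 12.2 in ADREX, all below SHAM (-3.27 ± 0.46, adjusted p = 0.00104), and Arntl 298, 371, 391 and 783 and 117, 49.8, 322 and 74.6, with ADREX air 67 inside the SHAM range (-1.97 ± 0.44). Nr1d1 (REV-ERB alpha), which acts on ROR elements, had a change of -0.85 (adjusted p = 0.266). Per3 and Npas2 passed in all fits without 1 library, and Per2, Dbp, Tef and Arntl missed in 6, 5, 4 and 4 (highest adjusted p 0.101 for Per2 and 0.101 for Tef without ADREX air 66, and 0.124 for Dbp and 0.0849 for Arntl without SHAM air 4). The labels give no time of day for the samples.

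In the lists of acute phase and plasma proteins, complement and coagulation, NF-kB and cytokine response, and antigen presentation, some genes rose and none fell. Of all genes tested 1.49% rose and 2.03% fell. At such shares lists of 19 to 31 genes may hold no fall, and no test was made on a list. Lbp, the carrier of bacterial lipopolysaccharide, was 1525, 1647, 1596 and 1445 in SHAM and 5633, 8920, 9848 and 6025 in ADREX, with ADREX air 67 the highest (2.25 ± 0.34, adjusted p = 0.00188); with Serpina6 and Serpina7 it made 3 of 25 tested acute phase and plasma genes that rose. Of 31 tested genes of complement and coagulation C4b and C9 rose (1.68 ± 0.44 and 0.75 ± 0.20), as did 1 of 19 of the NF-kB and cytokine response, Il1rn, the interleukin-1 receptor antagonist (1.26 ± 0.21), and 3 of 21 of antigen presentation, the class II genes Cd74, RT1-Db1 and RT1-Bb (0.79 ± 0.18, 0.85 ± 0.19 and 0.94 ± 0.18). Apoa1, the main protein of HDL, rose from 13155 ± 6304 to 36072 ± 9479, and Apoa4 fell from 2788 ± 942 to 963 ± 187. Immediate early genes gave 2 of 15, Junb (1.69 ± 0.38) and Sik1, a kinase induced by cAMP (1.42 ± 0.36), both higher. Of these 15 genes 11 had a positive and 4 a negative change (median 1.05), and 10 had an unadjusted p under 0.05 (limma). Gcgr, the glucagon receptor, fell (-0.82 ± 0.17). Lbp, Il1rn and RT1-Bb passed in all fits without 1 library, and RT1-Bb missed in a fit of the 8 air libraries alone (adjusted p = 0.0502). C4b, C9, Cd74, RT1-Db1, Apoa1, Apoa4, Junb, Sik1 and Gcgr missed in 9, 11, 4, 5, 4, 3, 3, 6 and 3 of them. The highest adjusted p were 0.145, 0.148, 0.0753, 0.127 and 0.053 for C4b, C9, Apoa4, Sik1 and Gcgr without ADREX air 66, 0.0729 and 0.0735 for Cd74 and RT1-Db1 without SHAM air 2, and 0.0663 and 0.0788 for Apoa1 and Junb without SHAM air 4.

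Of 20 tested genes of one-carbon and phospholipid metabolism 5 fell and none rose, among them Chka, choline kinase (-1.60 ± 0.29), Pcyt1a, of phosphatidylcholine synthesis (-0.97 ± 0.24), and Gnmt, glycine N-methyltransferase (-2.14 ± 0.56). Cyp26a1, which degrades retinoic acid, was 17.9, 13.2, 13.8 and 6.02 in SHAM and 76.5, 59.3, 37.2 and 80.7 in ADREX (2.26 ± 0.33, adjusted p = 0.00135). Enpep, the aminopeptidase that cleaves angiotensin II, fell by 1.28 and Car12, carbonic anhydrase XII, by 3.87 on the log2 scale; Car12 had 69.9, 64.9, 86.3 and 110.4 in SHAM and 7.06, 1.06, 7.45 and 6.11 in ADREX, where the ADREX libraries held 1 to 6 reads each. Edem1, a lectin of the degradation of misfolded proteins, changed by -1.69 ± 0.42 and Foxa3, a hepatocyte factor, by 1.90 ± 0.50. In the lists of antioxidant targets of NRF2 (17 tested), metallothioneins and zinc transporters (10), interferon response (24), oxidative phosphorylation (25), cell cycle (19) and iron and heme (22) no gene passed limma's test, and 4, 2, 3, 4, 3 and 4 of their genes had an unadjusted p under 0.05. Chka, Cyp26a1, Enpep and Car12 passed in all fits without 1 library, and Pcyt1a, Gnmt, Edem1 and Foxa3 missed in 6, 10, 6 and 12 (adjusted p = 0.117 and 0.149 without SHAM air 4, 0.119 without ADREX air 66 and 0.128 without SHAM air 2).

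Of the 30 genes named by rule, the 15 largest rises and 15 largest falls among genes with separate groups and a mean of at least 73.4 in the higher group, several belong to no list above. Dusp10, a phosphatase that inactivates stress-activated kinases, was 14.9, 10.8, 25 and 18.1 in SHAM and 83.6, 168, 104 and 95.4 in ADREX (2.65 ± 0.40). Adcy10, the soluble adenylyl cyclase, was 77.4, 62.5, 81.3 and 60.2 in SHAM and 832, 1044, 83.4 and 384 in ADREX, where ADREX air 67 lay just above the highest SHAM library (2.54 ± 0.55). Maff, a small Maf transcription factor, and Nlrc4, an inflammasome sensor, rose by 2.35 and 2.28. Among the falls, Arhgef19, an exchange factor for small GTPases, was 323, 349.5, 608 and 291 in SHAM and 30.6, 18, 73 and 20.8 in ADREX (-3.59 ± 0.40, adjusted p = 0.000412). St8sia1, the ganglioside GD3 synthase, changed by -3.20 ± 0.39 and Tsku, a secreted proteoglycan, by -3.15 ± 0.76. Dusp10, Maff, Nlrc4, Arhgef19 and St8sia1 passed in all fits without 1 library, and Adcy10 and Tsku missed in 4 and 5 (adjusted p = 0.0696 and 0.0824, both without ADREX air 66).

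**Figure D4:**
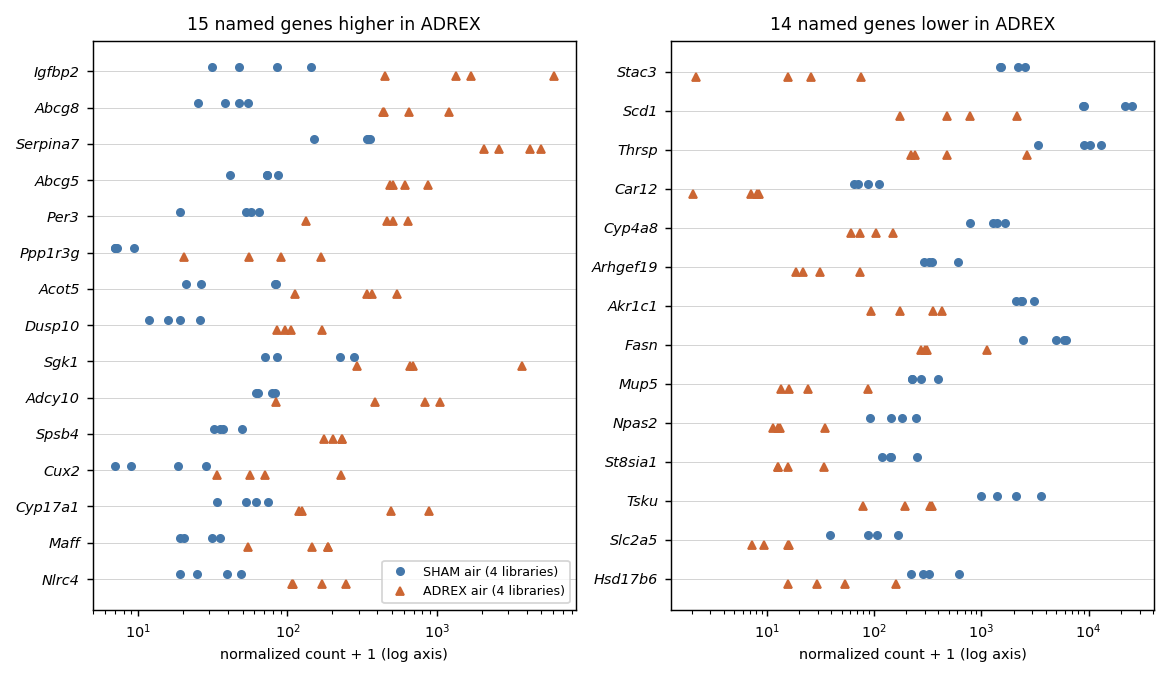
Normalized count + 1 (x axes, log scale) of the 15 named genes that rose and 14 that fell, with 4 SHAM air libraries (blue circles) and 4 ADREX air libraries (orange triangles) for each gene. The groups are separate in all 29 genes, by rule, most widely for Stac3 and most narrowly for Adcy10 and Sgk1.

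The same surgery was compared in the 8 libraries of ozone-exposed rats, whose group means share no library with the air comparison. Both comparisons came from the same fit, with a shared error estimate for each gene, so their calls are not independent. In a fit of the 8 air libraries alone 212 genes passed in air. Under ozone 1601 genes passed (12.5%), 772 higher (6.04%) and 829 lower (6.48%). Of the 451 genes that differed in air, 419 had the same sign under ozone (92.9%, against 64.6% of all genes tested), and 237 passed in both with the same sign, 91 higher and 146 lower. Genes called in both, whatever the sign, made up 53% of the air calls and 14.9% of the ozone calls. Stac3 and Igfbp2 changed by -5.81 and 4.28 under ozone, against -6.88 and 4.60 in air, and 25 of the 30 named genes passed in both with the same sign.

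The difference between the effects under ozone and in air passed for 14 of 12791 genes (0.109%), 3 of which differed in air (1 to 13 when 1 library was left out). Spsb4, a SPRY and SOCS box protein, was 31.3, 36, 48.8 and 34.1 in SHAM and 232, 176, 201 and 231 in ADREX in air, a rise of 2.46 ± 0.37, and changed by -1.54 under ozone (adjusted p = 0.0141; difference -4.00, adjusted p = 0.00707). Its SHAM mean was 37.5 ± 7.73 in air and 433 ± 275 under ozone. The ADREX mean of Spsb4 was 210 ± 26.9 in air and 141 ± 63.3 under ozone, where the groups overlapped. Por, which rose in air (1.15), changed by -1.01 under ozone (difference -2.17, adjusted p = 0.04). The other, Tmem159, singled out after its values were seen, fell in air (-1.08 ± 0.23, and an adjusted p of 0.0563 without ADREX air 65) and had a change of 0.70 under ozone that missed the threshold (difference 1.78, adjusted p = 0.045). Fkbp5 changed by -2.56 under ozone (adjusted p = 0.000211) and by -0.58 in air, and the test of that difference missed the threshold (adjusted p = 0.0901). For the remaining genes that passed in air, a difference between exposures was not detected at this sample size, and 103 of the 451 had an unadjusted p under 0.05 for it.

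**Figure D5:**
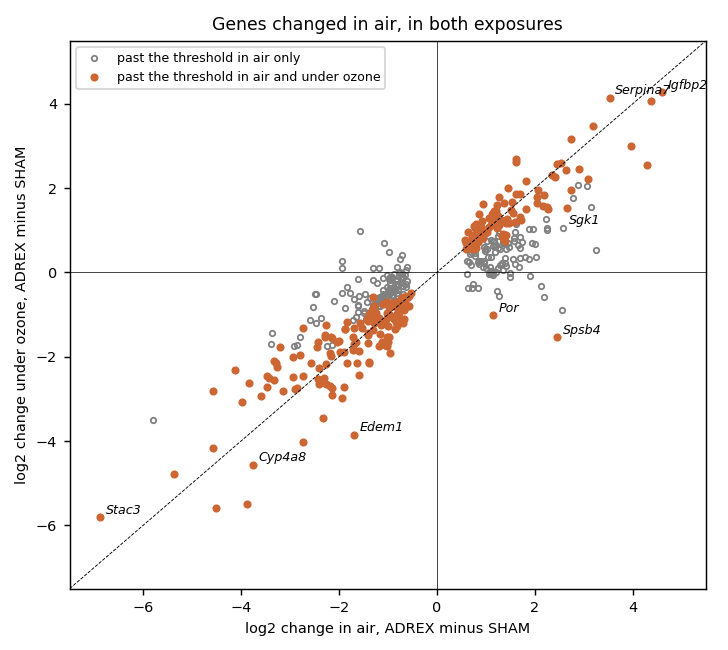
Change in air (x axis) against change under ozone (y axis), both log2, ADREX minus SHAM, for the 451 genes that passed in air, with filled points for genes past the threshold in both. Most points lie in the lower left and upper right, with the same sign in both, and Spsb4 and Por lie at the lower right.

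Markers of other liver cells were checked in the same fit. No tested gene passed among those of Kupffer cells and macrophages (14), stellate cells and fibroblasts (13), T and NK cells (6), B and plasma cells (2), neutrophils (3) or red cells (3), with 5, 2, 2, 0, 2 and 0 at an unadjusted p under 0.05. The Kupffer cell and macrophage list was higher in ADREX for 13 of 14 genes (median 0.44), and its summed level was 732 to 985 RPM in SHAM and 905 to 1793 in ADREX, so the antigen presentation genes above rose beside it; the part of these cells was not tested. Sinusoidal endothelial markers summed to 496 to 565 in SHAM and 353 to 784 in ADREX with a negative change for 8 of 11 tested genes (median -0.14), of which Ehd3 passed (-1.09 ± 0.25, with an adjusted p of 0.0797 without SHAM air 2), and bile duct markers to 15.3 to 38.9 and 35.9 to 51.0 with a positive change for all 5 tested genes (median 0.93), of which Epcam passed (1.10 ± 0.18). General hepatocyte markers summed to 163099 to 228482 RPM in SHAM and 132801 to 172289 in ADREX. Of the 10 tested, 4 had a positive and 6 a negative change (median -0.13), and Apoa1 rose while none fell. Alb alone made up 8.78% to 14.9% of reads in SHAM and 6.24% to 9.31% in ADREX.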

How the data were processed

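The deposited table holds normalized signal values for 22587 symbols without positions, in which every column is a set of read counts scaled by a single factor. Partek, DESeq2 and rat build rn6 are named per the submitters' processing notes, while versions, aligner, counter and gene models were not given in the sources used here. Libraries were made from mRNA of flash-frozen liver and sequenced on an Illumina NextSeq, per the labels' protocols, and were grouped by title. Division by each column's step gave whole reads (100% of values within 0.01 of one), on which edgeR 4.0.16 and DESeq2 1.42.0 ran as alternatives.

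All changes come from limma-trend (version 3.58.1, R 4.3.3), two-sided, on log2(value + 1) with 1 mean per group over 16 libraries; the fit had 12 residual and 4.42 prior degrees of freedom. The filter of 14.7 is 1 count in 1000000 of the median column total. Genes were named by rule if they passed, had separate groups, reached a mean of 73.4 (5 counts in 1000000) in either group and carried no placeholder symbol, and the 15 with the largest change each way were kept; 1 of these, and a few list members, are not reported here. The genes described, the 41 pathway lists and the 17 cell type lists were chosen with earlier results of these data known; 918 of 962 list members were in the table and 821 tested. Alternatives changed the pseudocount, filter, scaling, weights, tool and threshold, added a nervous tissue covariate, or left out each of the 16 libraries. The models were tested on simulated data with known changes. Limits at 3 reads cover counting error only. Promoter windows came from RefSeq build GRCr8.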

Additional observations from a re-analysis of the deposited data

Results flagged for a closer look

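In 260 groups of 4 libraries, 2 groups for each of 130 genes described, 23 had a lowest or highest library whose gap to its neighbour was a share of the group's range above Dixon's critical value for 4. Chance gives about 1 in 20 for independent, normally distributed values. All these groups come from the same 8 libraries, and the genes were chosen with earlier results known, so the 23 cannot be set against that rate. ADREX air 67 accounted for 15 of the 23. It was the highest ADREX library for Sgk1 (3720), Thrsp (2700), Fasn (1140), Elovl5 (2340), Pklr (1020), Hmgcs1 (14300), Sqle (1250), Mup4 (1200), Mup5 (87.9), LOC259245 (22900), Esr1 (293), Fkbp5 (460) and Npas2 (34.3), and the lowest for Pck1 (28900) and Per2 (43.2). In ADREX air 68, St8sia1 (33) and Nr1h4 (1030) were the highest of their group. Among SHAM libraries, Serpina7 was lowest in SHAM air 1 (149), and the highest were Ppp1r3g (8.41) and Srebf1 (4910) in SHAM air 2, Ehhadh (8440) in SHAM air 3, and Igfbp3 (1020) and Il1rn (973) in SHAM air 4.

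The ADREX effect differed between exposures, ozone minus air on the log2 scale, by -4.00 for Spsb4 (adjusted p = 0.00707, limma), by -2.17 for Por (adjusted p = 0.04) and by 1.78 for Tmem159 (adjusted p = 0.045). Spsb4 and Por rose in air and fell under ozone, whereas Tmem159 fell in air and its positive change under ozone missed the threshold. For Spsb4 the SHAM mean was 37.5 in air and 433 under ozone, and the ADREX mean 210 and 141.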

How the results depend on the processing

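No paired analysis was possible because no replicate number is shared between groups. The counts given here are genes changed in air, those also changed the same way under ozone and those whose effect differed between exposures (451, 237 and 3 as reported). They were 1456, 668 and 60 with array weights (53.4% higher, against 42.4%), 835, 402 and 47 with DESeq2, 194, 107 and 5 with the nervous tissue covariate, 122, 63 and 1 at an adjusted p under 0.01 and 848, 438 and 17 under 0.1. The first was 212 in a fit of the 8 air libraries alone. The third was 1 with no filter, 5 with TMM scaling and 6 with edgeR. Without 1 library they ranged from 194 to 1004, 121 to 366 and 1 to 13, the lowest first count without ADREX air 66 and the highest without SHAM air 3. Of 124 genes that passed and were followed, 56 passed in every alternative (23 of the 30 named), 57 missed the threshold with the nervous tissue covariate, and none changed direction. Direction did change for 5 genes that had not passed. Pck1 was 0.18 with weights, 0.0029 with edgeR, 0.0023 with DESeq2 and -0.127 to 0.241 without 1 library. Per1 was 0.12 with edgeR, 0.13 with DESeq2, 0.0843 with the covariate and -0.38 to 0.409 without 1 library. Nr3c1 was 0.0595 with weights and -0.138 to 0.0931 without 1 library, and G6pc and Tsc22d3 were -0.768 to 0.263 and -0.594 to 0.0566 without 1 library. The cause of these shifts was not tested. With 4 libraries a group, a gene that missed the threshold is not shown to be unchanged.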

Other observations

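A group of activin genes, described here after their values were seen and outside the naming rule, moved in opposite directions. Activins are dimers of inhibin beta chains and follistatin binds and blocks them. Fst, follistatin, held 0 to 2 reads in each SHAM air library and 9 to 107 in each ADREX air library (36.5, 113, 13.4 and 30.6 normalized counts in ADREX air 65 to 68; adjusted p = 0.00756, limma). Inhbb, the beta B chain, held 0 to 3 reads in SHAM and 17 to 92 in ADREX (77.7, 97.4, 25.3 and 41.6; adjusted p = 0.00756). Because SHAM lay at or under the 3-read floor for both, no fold is given. Inhbe, the beta E chain made by hepatocytes, was 1503, 1817, 1086 and 875 in SHAM and 335, 352, 614 and 165 in ADREX, without overlap (-1.94 ± 0.38, adjusted p = 0.0108). Inhba, the beta A chain, was 193, 168, 151 and 213 in SHAM and 36.5, 48.7, 59.6 and 18.3 in ADREX (-2.23 ± 0.56), and without ADREX air 68 its adjusted p was 0.116. Inhbc, the beta C chain, overlapped between the groups (-0.34 ± 0.28, adjusted p = 0.487). Fst, Inhbb and Inhbe passed in all 16 fits without 1 library.

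Further genes outside the lists and the naming rule were also singled out after their values were seen. Etnppl, a lyase of phosphoethanolamine, was 8015, 5516, 5266 and 15774 in SHAM and 1737, 322, 1348 and 2436 in ADREX (-2.74 ± 0.53), and Ednra, an endothelin receptor, 458, 142, 378 and 347 and 47.1, 31.8, 95.3 and 28.1 (-2.73 ± 0.37).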
